A study of Mus musculus with 18 samples.

Results

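Immediate-early genes are transcribed within minutes of a stimulus, before any new protein is made, and early inflammatory genes follow closely behind them. This account follows 40 such genes in mouse bone marrow, mouse by mouse. They were chosen by symbol and fall into 11 AP-1 and Egr genes, 8 genes of cytokines and of NF-kB feedback, and 21 other early-response genes. The array held 18194 genes with a probeset of their own, of which 14505 passed a filter on low levels (a mean of at least 3.30 on the log2 scale). All 40 members had such a probeset and passed the filter. Fosb, Ptgs2 and Cxcl2 were under that level in 14, 12 and 8 of the 18 mice and passed through the mice in which they were high, so their folds are given as bounds against the filter level. Where a gene had several probesets, the one with the brightest mean stood for it.

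The study measured total RNA of flash-frozen bone marrow from 18 C57Bl6 mice, 1 Affymetrix 3' expression array per mouse, each titled a biological replicate. Transgenic animals overexpressed a long non-coding RNA, CCAT2, in its G or T form throughout the body, and myeloid malignancy is the setting that the title names. The 6 CCAT2-GT mice carry the label DRAI+, the CCAT2-G and CCAT2-T animals, 4 of each, the label DRAI-, and the 4 wild-type (WT) mice no DRAI status. DRAI is not spelled out. Not given in the sources used here are the age of the mice, the promoter of the transgene and the way in which CCAT2-GT joins both forms.

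Fos and Jun family proteins pair to form AP-1, a transcription factor that carries growth and stress signals to DNA, and the Egr proteins are zinc-finger factors induced through the same kinase routes. NF-kB, released by inflammatory signals, drives genes of chemokines and cytokines as well as genes of its own inhibitors, which close a feedback loop. In marrow such genes are best known from activated neutrophils, monocytes and macrophages.

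Array medians lay between 4.27 and 4.40. Arrays carry no read depth, so precision depends on how many there are. Marrow markers were present on all arrays: the neutrophil gene S100a8 ranged from 13.64 to 13.86 and the red cell gene Slc4a1 from 11.73 to 12.56. CCAT2-T replicate 3 stood apart on the array's control probesets. Its Gapdh signal at the 3' end exceeded that at the 5' end by 1.34 on the log2 scale, against -0.14 to 0.31 in the other 17 mice, and the same difference for Actb was 1.36, against 0.15 to 0.69. The spread of values was narrow on 5 arrays (CCAT2-T replicates 1 and 2, CCAT2-G replicate 1 and the first pair of WT replicates, 1 and 2), with interquartile ranges of 2.90 to 3.07. A fit without these arrays keeps only replicates 3 and 4 of CCAT2-T and of WT. In bulk marrow, fewer cells of a type and less RNA per cell cannot be told apart.

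Promoter windows of 250 bases before a listed start were found in the RefSeq table (build GRCm38.p6) for 33 of the 40 members. None was used for Egr1, Egr3, Ier2, Nfkbiz, Ccl4, Rgs1 and Cd69. The windows of Egr2, Nr4a1 and Socs3 lie inside the annotated span of the gene, and those of Fosb and Il1b overlap it. The windows of 6 members that carry a match to a motif of the pathways above are shown, from genes with wide and with narrow ranges of values. Further members with such a match are named below without their windows. Capitals mark the matches, searched on both strands.
Cxcl2 lies at chr5:90903649-90903898, plus strand, and its capitals hold a pair of overlapping kappaB consensus matches, 1 on each strand.
Cxcl2: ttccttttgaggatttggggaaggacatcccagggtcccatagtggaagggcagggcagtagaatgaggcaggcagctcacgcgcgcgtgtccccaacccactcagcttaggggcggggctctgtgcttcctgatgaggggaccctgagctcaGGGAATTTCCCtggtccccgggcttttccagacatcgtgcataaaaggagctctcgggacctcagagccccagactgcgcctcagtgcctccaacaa
Nfkbia lies at chr12:55492648-55492897, minus strand, with 1 kappaB consensus match.
Nfkbia: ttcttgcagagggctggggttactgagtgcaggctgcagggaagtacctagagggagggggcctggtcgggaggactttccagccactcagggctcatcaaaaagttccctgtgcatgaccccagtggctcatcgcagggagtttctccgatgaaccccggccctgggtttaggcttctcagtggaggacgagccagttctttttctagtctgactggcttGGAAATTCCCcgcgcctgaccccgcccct
Fos lies at chr12:85473640-85473889, plus strand, with 1 kappaB consensus match followed by a TATA box.
Fos: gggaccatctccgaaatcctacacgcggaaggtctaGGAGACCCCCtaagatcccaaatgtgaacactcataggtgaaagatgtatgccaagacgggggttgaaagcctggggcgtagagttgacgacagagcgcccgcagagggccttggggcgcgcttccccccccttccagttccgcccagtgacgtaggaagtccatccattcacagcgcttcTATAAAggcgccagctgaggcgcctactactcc
Zfp36 lies at chr7:28379229-28379478, minus strand, with 1 CArG box, the element bound by serum response factor.
Zfp36: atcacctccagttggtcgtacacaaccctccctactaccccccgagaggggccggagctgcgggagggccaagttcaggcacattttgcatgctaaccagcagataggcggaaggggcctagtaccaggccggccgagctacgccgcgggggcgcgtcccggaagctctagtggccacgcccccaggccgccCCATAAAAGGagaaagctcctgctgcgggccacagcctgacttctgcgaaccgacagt
Dusp5 lies at chr19:53528895-53529144, plus strand, with 2 CArG boxes side by side.
Dusp5: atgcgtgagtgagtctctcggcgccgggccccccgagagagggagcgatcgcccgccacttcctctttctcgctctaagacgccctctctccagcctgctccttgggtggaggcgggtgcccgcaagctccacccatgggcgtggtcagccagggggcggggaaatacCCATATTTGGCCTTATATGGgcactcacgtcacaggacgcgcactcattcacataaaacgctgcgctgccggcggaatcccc
Dusp1 lies at chr17:26508473-26508722, minus strand, with 1 cyclic AMP response element (CRE, TGACGTCA).
Dusp1: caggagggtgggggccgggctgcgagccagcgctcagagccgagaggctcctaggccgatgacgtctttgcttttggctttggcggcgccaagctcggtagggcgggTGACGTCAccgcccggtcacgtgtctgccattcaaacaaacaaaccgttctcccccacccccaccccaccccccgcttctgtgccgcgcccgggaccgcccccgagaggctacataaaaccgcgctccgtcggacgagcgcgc

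The kappaB consensus occurred in 8 of the 33 windows (24.2%), those of Fos, Fosb, Fosl2, Egr2, Cxcl2, Nfkbia, Tnfaip3 and Ier3, and in 7.01% of the windows of all 27025 genes. A CArG box occurred in 2 windows, Zfp36 and Dusp5 (6.06%, against 1.40% of all genes). The CRE occurred in 2, Btg2 and Dusp1 (6.06%, against 1.62%). The AP-1 site TGACTCA occurred in 1, Tnfaip3 (3.03%, against 4.43%), where it lay apart from the kappaB matches. The Egr site GCGTGGGCG occurred in none (0.54% of all genes), which says only that these letters are not in these windows. TATAAA occurred in 7 (21.2%, against 13.0%). These matches are descriptions of letters, and none was tested for binding.

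Several AP-1 and Egr genes varied from mouse to mouse more than nearly all other genes on the array, and the same animals were high in each of them. Fos, the founding member of its family, measured 12.83, 8.07, 10.49, 6.75, 12.47 and 6.91 in CCAT2-GT mice and 6.97, 6.03, 8.64 and 6.96 in CCAT2-G mice. Fos levels were 5.95, 5.71, 12.62 and 11.32 in CCAT2-T mice and 6.35, 6.22, 13.05 and 6.32 in WT mice. CCAT2-GT replicates 1 and 5, CCAT2-T replicate 3 and WT replicate 3 were at 12.47 or more, while 12 of the 18 mice lay at or below 8.64. Egr1, a zinc-finger factor induced by growth and stress signals, measured 10.22, 4.31, 7.52, 5.06, 10.53 and 6.07 in CCAT2-GT mice and 5.88, 5.61, 4.26 and 5.75 in CCAT2-G mice. Egr1 levels were 6.07, 5.64, 10.80 and 8.29 in CCAT2-T mice and 5.74, 5.73, 11.54 and 5.27 in WT mice. The same 4 mice were at 10.22 or more for Egr1, and CCAT2-G replicate 3 and CCAT2-GT replicate 2 were lowest. Jun, the partner of Fos, measured 9.16, 4.02, 6.18, 4.79, 8.40 and 4.84 in CCAT2-GT mice and 4.20, 4.25, 5.05 and 4.86 in CCAT2-G mice. Jun levels were 4.21, 3.84, 10.13 and 7.53 in CCAT2-T mice and 4.00, 4.15, 10.56 and 4.24 in WT mice. Again these 4 mice were highest, and the 4 CCAT2-G mice lay within the range of each other genotype, at its low end.

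Between the highest and the lowest mouse the array signal differed 161-fold for Fos, 155-fold for Egr1 and 106-fold for Jun. Fosb, a Fos paralogue, spanned 2.38 to 7.82, its highest mouse at least 22.8-fold above the filter level. Junb, a Jun paralogue, spanned 5.95 to 9.86, and Atf3, a stress-induced bZIP factor, spanned 4.70 to 8.41. Narrower ranges were seen for Jund (8.49 to 10.96), Fosl2 (7.03 to 9.07) and Egr2 (3.63 to 5.03). Maff, a small Maf protein that lacks an activation domain, spanned only 4.50 to 4.97 (1.39-fold), and Egr3 4.90 to 5.47 (1.48-fold). By SD over the 18 mice, Fos ranked 3rd, Egr1 5th, Jun 6th and Fosb 13th of the 14505 genes tested. The set was therefore uneven, with 4 members among the most variable genes of the array and 2 nearly flat by the probeset that stood for them. A dimmer probeset of Egr3, also above the filter, spanned 2.89 to 4.98 and had r = 0.49 with the brightest. The fold and rank of Jun also belong to its brightest probeset. Its dimmer one, above the filter too, spanned 4.43 to 7.71 with an SD of 1.04, against 2.29, and had r = 0.96 with the brightest.

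**Figure D1:**
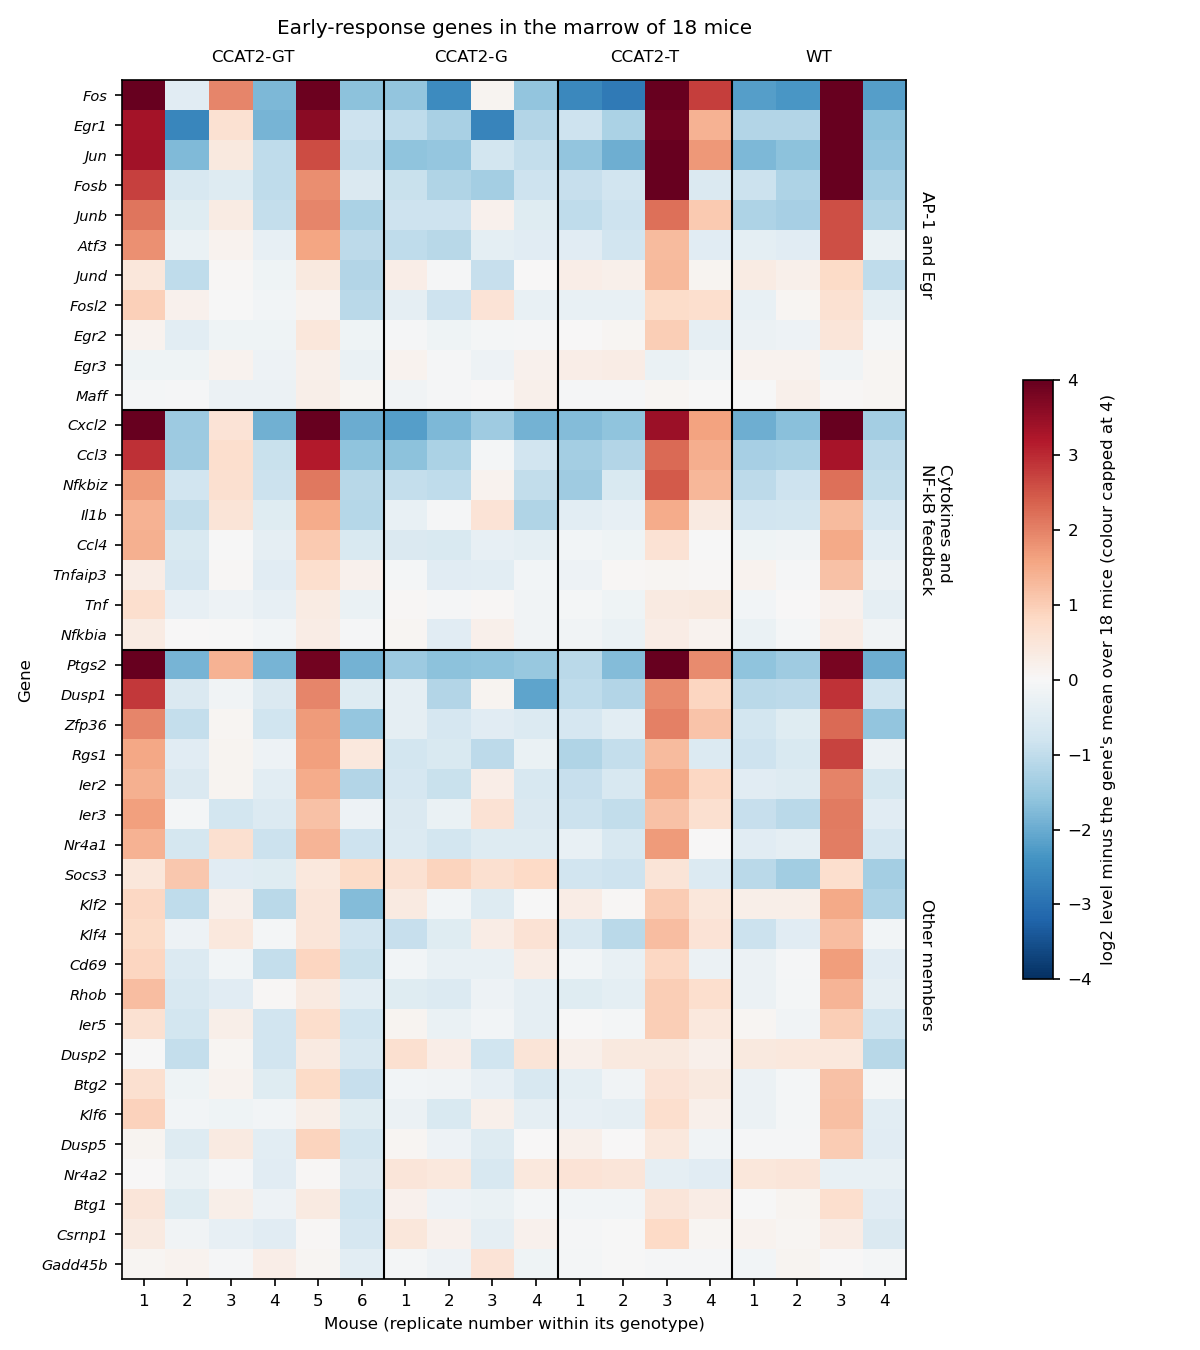
Log2 level of each member minus that gene's mean over the 18 mice (colour, capped at 4 above and below), 1 column per mouse and 1 row per gene, with genes grouped into AP-1 and Egr, cytokines and NF-kB feedback, and other members. CCAT2-GT replicates 1 and 5, CCAT2-T replicate 3 and WT replicate 3 form the dark red columns, while the 4 CCAT2-G columns are pale or blue for the variable genes.

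Cytokine genes followed the same animals. Cxcl2, a chemokine that draws neutrophils, measured 9.84, 3.45, 5.46, 2.99, 9.69 and 2.91 in CCAT2-GT mice and 2.70, 3.12, 3.47 and 3.01 in CCAT2-G mice. Cxcl2 levels were 3.17, 3.31, 8.33 and 6.50 in CCAT2-T mice and 2.95, 3.25, 10.64 and 3.55 in WT mice. The 4 mice named above were at 8.33 or more, CCAT2-T replicate 4 and CCAT2-GT replicate 3 lay between, and the other 12 were at 3.55 or less. Its highest mouse was at least 162-fold above the filter level, and its SD was the 2nd largest of all genes tested. Ccl3, a chemokine for monocytes and other leukocytes, measured 8.63, 4.27, 6.38, 4.83, 8.88 and 4.10 in CCAT2-GT mice and 4.06, 4.46, 5.62 and 4.96 in CCAT2-G mice. Ccl3 levels were 4.36, 4.54, 7.98 and 7.16 in CCAT2-T mice and 4.39, 4.44, 9.00 and 4.65 in WT mice. The order of the high mice was close to that for Cxcl2, with WT replicate 3 highest. Ccl4, a close relative of Ccl3, spanned 5.47 to 7.61 and Il1b, which encodes the fever-inducing cytokine interleukin-1 beta, 6.84 to 9.53. Tnf, the gene of tumour necrosis factor, spanned only 5.28 to 6.29 (2.03-fold), and 3 of its 4 highest mice were among the same 4.

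The NF-kB feedback genes differed from each other. Nfkbiz, a nuclear inhibitor-like protein that also co-activates part of the NF-kB response, measured 8.84, 6.37, 7.76, 6.25, 9.22 and 6.01 in CCAT2-GT mice and 6.17, 6.12, 7.26 and 6.15 in CCAT2-G mice. Nfkbiz levels were 5.72, 6.53, 9.59 and 8.46 in CCAT2-T mice and 6.09, 6.31, 9.32 and 6.14 in WT mice. For Nfkbiz CCAT2-T replicate 3 was highest and the range was 14.6-fold. Nfkbia, which holds NF-kB in the cytoplasm, measured 11.24, 10.93, 10.89, 10.82, 11.22 and 10.85 in CCAT2-GT mice and 10.99, 10.45, 11.13 and 10.79 in CCAT2-G mice. Nfkbia levels were 10.76, 10.63, 11.19 and 11.05 in CCAT2-T mice and 10.64, 10.84, 11.22 and 10.77 in WT mice. The same 4 mice were highest for Nfkbia too, but the whole range was 1.73-fold. Tnfaip3, the ubiquitin-editing enzyme A20, measured 7.52, 6.56, 7.28, 6.80, 7.91 and 7.41 in CCAT2-GT mice and 7.17, 6.79, 6.80 and 7.12 in CCAT2-G mice. Tnfaip3 levels were 7.03, 7.28, 7.32 and 7.29 in CCAT2-T mice and 7.38, 7.20, 8.42 and 7.00 in WT mice. WT replicate 3 was highest for Tnfaip3 and the groups overlapped. Cxcl2 and Nfkbia, whose windows both hold a kappaB consensus, thus had one of the widest and one of the narrowest ranges among the members, by the probesets that stood for them. Nfkbia had 5 probesets, all above the filter. The dimmer ones spanned more, the widest of them 9.51 to 10.71, with the same 4 mice highest, while the rest of the dimmer ones had other mice among their highest.

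Among the other members Ptgs2, Dusp1 and Zfp36 had the largest SD over the 18 mice. Ptgs2, the inducible cyclooxygenase that makes prostaglandins, measured 8.18, 2.18, 5.42, 2.18, 7.88 and 2.15 in CCAT2-GT mice and 2.57, 2.41, 2.43 and 2.53 in CCAT2-G mice. Ptgs2 levels were 2.96, 2.30, 8.57 and 5.94 in CCAT2-T mice and 2.42, 2.63, 7.83 and 2.08 in WT mice. All 4 CCAT2-G mice were between 2.41 and 2.57, under the filter level, whereas each of the other genotypes held at least 1 mouse at 7.83 or more. Dusp1, a phosphatase that switches off MAP kinases, measured 11.87, 8.44, 8.89, 8.46, 11.00 and 8.50 in CCAT2-GT mice and 8.68, 7.86, 9.15 and 6.92 in CCAT2-G mice. Dusp1 levels were 8.00, 7.87, 10.93 and 9.87 in CCAT2-T mice and 7.95, 7.99, 11.92 and 8.24 in WT mice. CCAT2-G replicate 4 was lowest for Dusp1, and the same 4 mice were at 10.93 or more. Zfp36, which binds AU-rich messages of cytokines and marks them for decay, measured 10.83, 7.93, 8.96, 8.10, 10.60 and 7.35 in CCAT2-GT mice and 8.54, 8.22, 8.43 and 8.35 in CCAT2-G mice. Zfp36 levels were 8.22, 8.46, 10.91 and 10.04 in CCAT2-T mice and 8.15, 8.41, 11.16 and 7.32 in WT mice. Its high mice were again those 4, followed by CCAT2-T replicate 4.

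The nuclear regulators spanned less. Nr4a1, an orphan nuclear receptor, spanned 6.13 to 9.04, Klf2, a Krüppel-like factor, 6.87 to 10.10, Klf4 7.10 to 9.40 and Klf6 8.09 to 9.90. Ier2 spanned 7.75 to 10.89 and Ier5, of the same family of early proteins, 7.81 to 9.61. The antiproliferative genes Btg1 and Btg2 spanned 10.37 to 11.82 and 8.08 to 10.18. Among regulators of signalling, Rgs1, which shortens G-protein signals, spanned 4.94 to 8.84. Ier3 spanned 4.78 to 7.94 and Rhob, a small GTPase, 8.17 to 10.15. Dusp5, a nuclear phosphatase of the kinase ERK, spanned 5.52 to 7.26, and its range (3.36-fold) was smaller than that of Zfp36 (14.2-fold), the other member with a CArG box in its window. Cd69, a surface marker of activated leukocytes, spanned 5.18 to 7.81.

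In 27 of the 40 members the 4 highest mice were exactly CCAT2-GT replicates 1 and 5, CCAT2-T replicate 3 and WT replicate 3. That held for 8 of 11 AP-1 and Egr genes, 6 of 8 cytokine and NF-kB feedback genes and 13 of 21 others. Among all 14505 genes tested it held for 60 (0.414%), of which 33 were no members. The 4 mice were picked out from the members' own values, so this is a description without a test. The count takes the brightest probeset of each gene. Of these members, Jun, Nfkbiz and Btg2 had the same 4 mice highest by their dimmer probesets above the filter as well. Such probesets of Jund, Klf6 and Ier5 did not, and those of Nfkbia and Btg1 differed among themselves. With CCAT2-T replicate 3 left out, 28 members had the other 3 mice highest, against 72 of all genes tested (0.496%). The 4 mice came from 3 of the 4 genotypes, and no CCAT2-G mouse was among them.

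The remaining 13 members departed from that order. Fosl2, Tnf, Tnfaip3, Klf4, Csrnp1, Dusp5 and Rhob each had 3 of the 4 mice among their own 4 highest. Maff had 2, and Egr3 and Dusp2 had 1 each. Nr4a2, Socs3 and Gadd45b had none. Nr4a2, an orphan nuclear receptor, was at 6.27 or more in replicates 1, 2 and 4 of CCAT2-G, replicates 1 and 2 of CCAT2-T and replicates 1 and 2 of WT, and at 5.90 or less in the other mice. All 5 narrow arrays were among the high ones. The mice high for Nr4a2 were also those with the highest means over 9 B-cell markers, at 8.63 or more, against 8.40 or less in the others. The part of the array spread and of B cells in this was not tested. These Nr4a2 levels are those of the brightest of 6 probesets. Of the dimmer ones above the filter, the 2nd and 3rd by mean had r = 0.03 and 0.28 with it, and the 4th 0.62.

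Mean levels over each set put the same 6 mice above the other 12. The mean of the 11 AP-1 and Egr genes was 8.07 in CCAT2-GT replicate 1, 7.89 in CCAT2-GT replicate 5, 8.41 in CCAT2-T replicate 3 and 8.60 in WT replicate 3. It was 6.58 in CCAT2-GT replicate 3, 6.90 in CCAT2-T replicate 4 and between 5.47 and 5.86 in the other 12 mice. The mean of the 8 cytokine and NF-kB feedback genes was 8.66, 8.69, 8.32 and 8.92 in the same 4 mice, 7.23 and 7.62 in the pair in between, and 6.13 to 6.79 in the other 12. Both sets thus left a gap between a large low group and a few high mice. Within the low group CCAT2-G replicate 3 had the highest cytokine mean, 6.79.

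**Figure D2:**
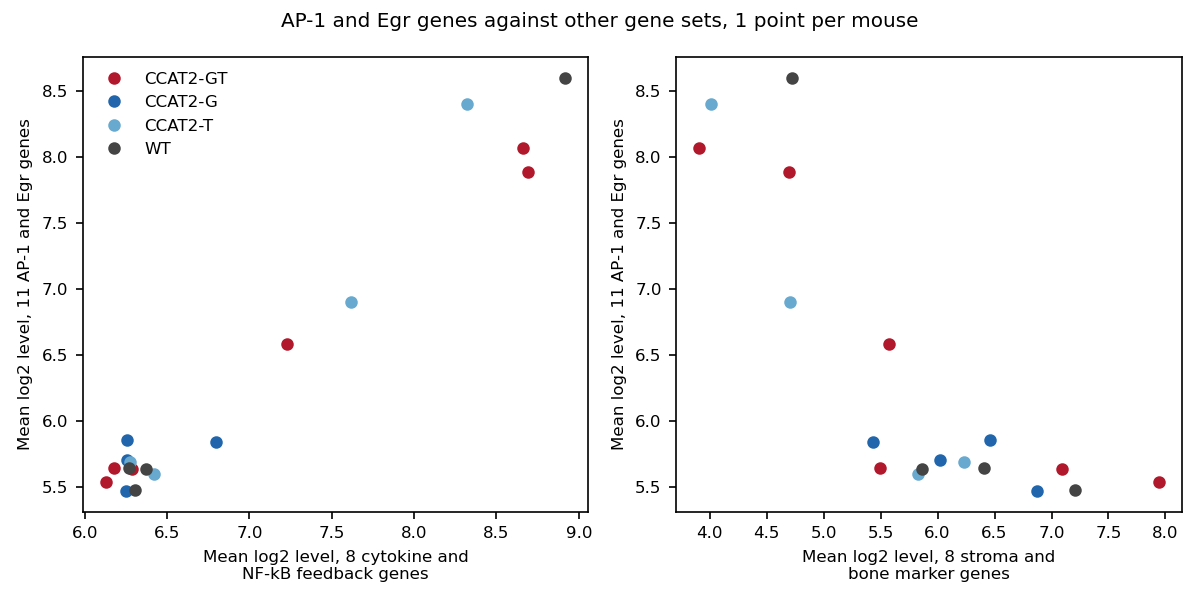
Mean log2 level of the 11 AP-1 and Egr genes (vertical) in each mouse against the mean of the 8 cytokine and NF-kB feedback genes (left) and of 8 stroma and bone marker genes (right), 1 point per mouse, coloured by genotype. The 4 mice at 7.89 or more on the vertical axis are also the 4 highest for cytokines, and their stroma and bone means lie between 3.91 and 4.72.

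Fos levels split at their widest gap (1.85) into 12 lower and 6 higher mice, so no test was run over all 18. Within the 12 lower mice, 2 of the 39 other members passed a permutation test of Pearson's r with Fos, Nfkbia (r = 0.80, Spearman's rho 0.84, adjusted p = 0.0406 and 0.0507) and Ier3 (r = 0.83, rho 0.64, adjusted p = 0.0406 and 0.480). Without the 2 mice farthest from the median of Fos these were 0.67 and 0.50. The median r of the 39 members there was 0.00. Within the 6 higher mice 12 members passed by Pearson's r (exact permutation test, smallest adjusted p = 0.0361) and none by Spearman's rho as well. These 6 mice were picked by Fos itself and include CCAT2-GT replicate 3 and CCAT2-T replicate 4, which lay between the low and the high animals. Pearson's r there carries that step, so it does not show that members followed Fos within 1 cluster. So few mice leave the rank test little room to pass. Klf6 and Btg1, with a rho of 1, had an adjusted p of 0.0542 in it. Without the 2 mice farthest from the median of Fos, r for the 12 members that passed was between 0.64 and 0.98, over the few mice left. With Il1b in place of Fos, 0 of 39 passed by Pearson's r in the lower or the higher mice, and 2 and 1 had an unadjusted p under 0.05. Most members thus separated high from low mice, and inside the low group few followed Fos or Il1b. Correlations between other pairs of members were not tested. Inside the low group, CCAT2-GT replicates 2, 4 and 6, CCAT2-G replicate 3 and WT replicate 4 were lowest for Dusp2, Klf2 and Nr4a2.

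As a measure of likeness only, r over the 18 mice was highest with Fos for Osm (0.95), H3f3b (0.94), Cebpb (0.93), Pnrc1 (0.92) and Mcl1 (0.91) among genes that are no members. Osm encodes the cytokine oncostatin M, Cebpb a myeloid bZIP factor and Mcl1 an inhibitor of apoptosis. For Il1b the 5 were H3f3b (0.93), Mcl1 (0.91), Osm (0.89), Nlrp3 (0.89), an inflammasome sensor, and G0s2 (0.89), an inhibitor of fat breakdown. Of the 20 genes most like Fos 12 were members, and of the 20 most like Il1b 11 were. All points share the RMA processing, and the split between high and low mice carries these values.

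Related genes outside the 40 are described by the same count. The same 4 mice were highest in 7 of 29 further early-response genes and 2 of 14 further early cytokines. They were highest in 0 of 17 further bZIP factors, 0 of 12 genes of the serum response and MAP kinase input, 0 of 18 NF-kB subunits and regulators and 0 of 12 heat shock genes. These lists were drawn up with results of these data known, so their counts describe the pattern only.

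Markers of marrow cell types were set beside these mice. None of the 10 megakaryocyte, 9 monocyte and macrophage, 9 B-cell, 9 T and NK cell, 8 neutrophil, 8 erythroid and 8 stroma and bone markers tested had the same 4 mice highest. Only 0.414% of all genes did, so 0 of so few markers says little. The neutrophil mean was 12.63 and 12.22 in CCAT2-GT replicates 1 and 5, 12.14 in CCAT2-T replicate 3 and 12.40 in WT replicate 3. By group it ranged from 11.74 to 12.63 in CCAT2-GT mice, 11.72 to 12.55 in CCAT2-G mice, 12.09 to 12.41 in CCAT2-T mice and 12.06 to 12.40 in WT mice. The stroma and bone mean was low where the members were high: it was 3.91 and 4.69 in CCAT2-GT replicates 1 and 5, 4.01 in CCAT2-T replicate 3 and 4.72 in WT replicate 3. By group that mean ranged from 3.91 to 7.94 in CCAT2-GT mice, 5.43 to 6.87 in CCAT2-G mice, 4.01 to 6.23 in CCAT2-T mice and 4.72 to 7.21 in WT mice. CCAT2-T replicate 4, intermediate for the members, had 4.70. The megakaryocyte mean was also low in some of these mice, at 6.39 and 7.12 in CCAT2-GT replicates 1 and 5, 6.18 and 6.82 in CCAT2-T replicates 3 and 4 and 7.42 in WT replicate 3. By group it ranged from 6.39 to 10.47 in CCAT2-GT mice, 7.47 to 8.77 in CCAT2-G mice, 6.18 to 7.32 in CCAT2-T mice and 7.42 to 8.94 in WT mice. The 3'-to-5' difference was high in CCAT2-T replicate 3 alone, and the other 3 high mice had Gapdh differences of -0.02 to 0.31. The part of neutrophils, stroma and megakaryocytes, and of RNA quality in CCAT2-T replicate 3, in the members' levels was not tested.

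The first group comparison asks how DRAI+ marrow differed from DRAI- marrow. None of the 40 members passed at an adjusted p of 0.05 (limma, Benjamini-Hochberg over 14505 genes), nor did any other gene, a background of 0%. At an unadjusted p under 0.05 there were 0 members, against 9.57% of all genes. No member separated the groups without overlap, as 0.0965% of all genes did. The medians were 0.36 for AP-1 and Egr genes, 0.25 for cytokine and NF-kB feedback genes and -0.01 for all genes, and 27 members were higher and 13 lower in DRAI+ mice. Of all genes 48.3% were higher. Most members were high in the same mice, so their directions are not independent. The AP-1 and Egr median was -0.01 without CCAT2-GT replicate 1, 0.03 without CCAT2-GT replicate 5, 0.68 without CCAT2-T replicate 3 and -0.10 without the 5 narrow arrays. For cytokine and NF-kB feedback genes it was 0.09 without CCAT2-GT replicate 1 and 0.06 without CCAT2-GT replicate 5.

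Rgs1 measured 7.69, 5.70, 6.24, 5.94, 7.77 and 6.58 in CCAT2-GT mice and 5.42, 5.54, 5.10 and 5.87 in CCAT2-G mice. Rgs1 levels were 4.94, 5.18, 7.39 and 5.61 in CCAT2-T mice and 5.31, 5.52, 8.84 and 5.92 in WT mice. Rgs1 averaged 6.65 ± 0.88 in DRAI+ and 5.63 ± 0.77 in DRAI- mice (SD, n = 6 and 8), a difference of 1.02 (SE 0.50, unadjusted p = 0.0553, adjusted p = 0.530). CCAT2-T replicate 3 lay just below CCAT2-GT replicates 1 and 5, and the groups overlapped. Atf3 measured 7.65, 5.57, 5.97, 5.49, 7.40 and 4.77 in CCAT2-GT mice and 4.82, 4.70, 5.43 and 5.37 in CCAT2-G mice. Atf3 levels were 5.37, 5.05, 7.08 and 5.37 in CCAT2-T mice and 5.42, 5.36, 8.41 and 5.57 in WT mice. Atf3 averaged 6.14 ± 1.14 in DRAI+ and 5.40 ± 0.73 in DRAI- mice, a difference of 0.74 (SE 0.51, adjusted p = 0.602). Here too CCAT2-GT replicates 1 and 5 were the highest of their genotype, and the difference was 0.44 without the first and 0.49 without the second. CCAT2-GT replicate 6 lay below 7 of the 8 DRAI- mice.

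Dusp2, a MAP kinase phosphatase of lymphoid and myeloid cells, measured 7.17, 6.25, 7.26, 6.42, 7.56 and 6.57 in CCAT2-GT mice and 7.83, 7.46, 6.39 and 7.71 in CCAT2-G mice. Dusp2 levels were 7.40, 7.58, 7.57 and 7.41 in CCAT2-T mice and 7.58, 7.61, 7.62 and 6.10 in WT mice. Dusp2 averaged 6.87 ± 0.53 in DRAI+ and 7.42 ± 0.44 in DRAI- mice, a difference of -0.55 (SE 0.27, unadjusted p = 0.0540, adjusted p = 0.527). The 5 mice at 6.57 or less were CCAT2-GT replicates 2, 4 and 6, CCAT2-G replicate 3 and WT replicate 4. The same 5 mice had the lowest means over 9 B-cell markers, 6.29, 6.70, 6.83, 6.63 and 7.19. That mean ranged from 6.29 to 8.02 in DRAI+ mice and from 6.63 to 9.03 in DRAI- mice, and its part in the Dusp2 difference was not tested. Csrnp1, a nuclear protein, measured 7.12, 6.65, 6.46, 6.32, 6.83 and 6.11 in CCAT2-GT mice and 7.22, 6.94, 6.42 and 6.95 in CCAT2-G mice. Csrnp1 levels were 6.74, 6.77, 7.58 and 6.84 in CCAT2-T mice and 6.92, 6.85, 7.06 and 6.21 in WT mice. Csrnp1 differed by -0.35 (SE 0.18, unadjusted p = 0.0676, adjusted p = 0.537), with CCAT2-T replicate 3 highest and the groups overlapping.

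The comparison of DRAI+ with WT marrow gave no called member either (0 of 40, background 0%). At an unadjusted p under 0.05 there was 1 member, Socs3, against 2.63% of all genes, and no member separated the groups, as 0.751% of genes did. Median differences were 0.01 for AP-1 and Egr genes, 0.24 for cytokine and NF-kB feedback genes and 0.00 for all genes. Without WT replicate 3 the AP-1 and Egr median was 0.69 and the cytokine and NF-kB feedback median 0.62. Without CCAT2-GT replicate 5 the first was -0.15, and without CCAT2-GT replicate 1 the second was -0.01. With the 5 narrow arrays left out they were -0.25 and -0.36, with replicates 3 and 4 as the only WT mice.

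Socs3, an inhibitor of cytokine receptor signalling, measured 6.73, 7.36, 5.83, 5.80, 6.70 and 7.03 in CCAT2-GT mice and 6.88, 7.17, 6.92 and 7.08 in CCAT2-G mice. Socs3 levels were 5.51, 5.45, 6.78 and 5.73 in CCAT2-T mice and 5.20, 4.89, 6.96 and 4.93 in WT mice. All 4 CCAT2-G mice were high, CCAT2-GT mice fell on both sides, and WT replicate 3 stood well above the other 3 WT mice. Socs3 averaged 6.57 ± 0.63 in DRAI+ and 5.49 ± 0.99 in WT mice (SD, n = 6 and 4), a difference of 1.08 (SE 0.44, unadjusted p = 0.0243, adjusted p = 1.00). With array weights, which give discordant arrays less influence, Socs3 passed (1.40, adjusted p = 0.0357), the only member to do so in the fits run. That is 1 of 40 members, where the same fit called 3.14% of all genes, and the share of members is no higher than this background. Without the 5 narrow arrays the Socs3 difference was 0.63. Fos differed by 1.60 (SE 1.61, adjusted p = 1.00), with means of 9.59 ± 2.73 in DRAI+ and 7.98 ± 3.37 in WT mice. Fos ranged from 6.75 to 12.83 in DRAI+ mice and from 6.22 to 13.05 in WT mice. Leaving out 1 mouse moved the Fos difference between 0.95 (without CCAT2-GT replicate 1) and 3.29 (without WT replicate 3), and without the 5 narrow arrays it was -0.10.

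Maff measured 4.67, 4.71, 4.50, 4.50, 4.97 and 4.82 in CCAT2-GT mice and 4.59, 4.71, 4.75 and 4.94 in CCAT2-G mice. Maff levels were 4.71, 4.71, 4.83 and 4.72 in CCAT2-T mice and 4.72, 4.94, 4.80 and 4.81 in WT mice. Maff differed by -0.12 (SE 0.10, adjusted p = 1.00) between DRAI+ and WT mice, which overlapped. Klf2, which maintains quiescence in lymphocytes and endothelium, measured 9.43, 7.58, 8.78, 7.53, 9.09 and 6.87 in CCAT2-GT mice and 8.96, 8.48, 8.08 and 8.60 in CCAT2-G mice. Klf2 levels were 8.88, 8.65, 9.60 and 9.06 in CCAT2-T mice and 8.84, 8.83, 10.10 and 7.37 in WT mice. Klf2 differed by -0.57 (SE 0.48, adjusted p = 1.00), with CCAT2-GT replicate 6 lowest and WT replicate 3 highest. It was -0.30 without CCAT2-GT replicate 6, -0.13 without WT replicate 3 and -1.04 without WT replicate 4. The mice at 8.08 or less for Klf2 were CCAT2-GT replicates 2, 4 and 6, CCAT2-G replicate 3 and WT replicate 4. As for Dusp2, these mice had the lowest means over 9 B-cell markers, and the part of B cells was not tested.

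**Figure D3:**
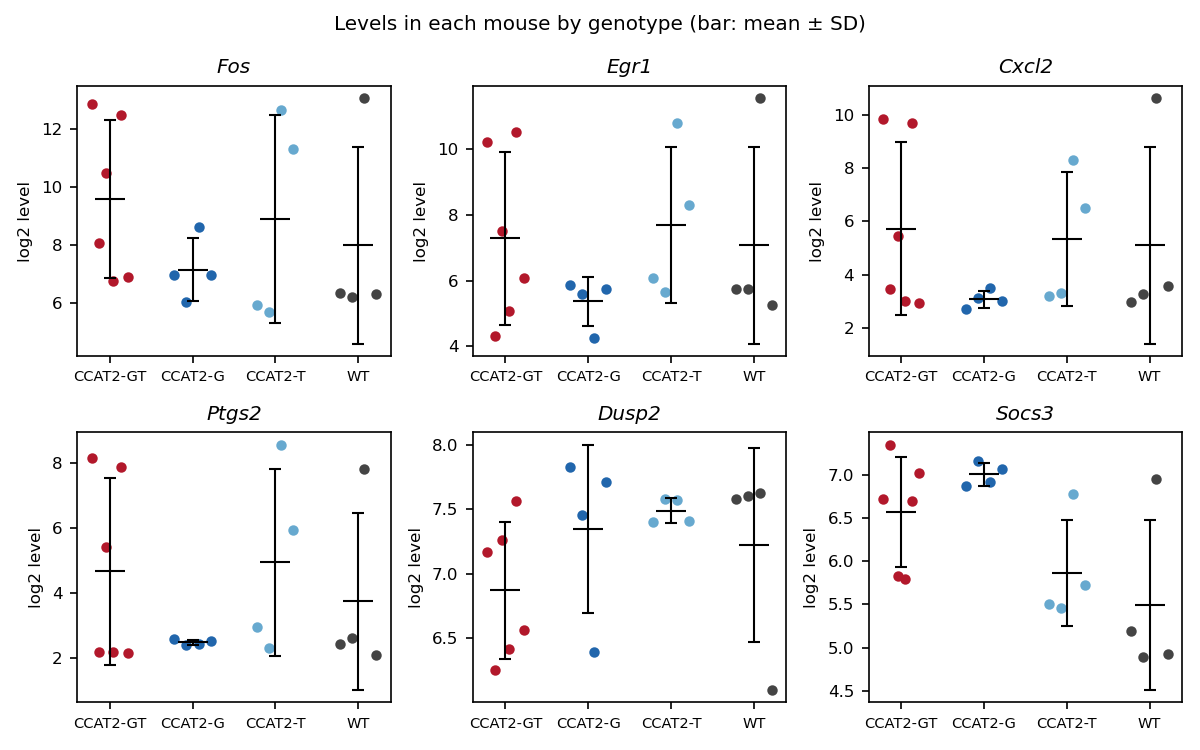
Log2 level of Fos, Egr1, Cxcl2, Ptgs2, Dusp2 and Socs3 in each mouse (points), by genotype, with the mean and SD of each genotype (bars). Fos, Egr1, Cxcl2 and Ptgs2 have a few high mice in CCAT2-GT, CCAT2-T and WT, and for Socs3 all 4 CCAT2-G mice lie above all 4 CCAT2-T mice.

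DRAI- marrow was set against the same 4 WT mice, so this comparison and the preceding one share their controls. Of the 40 members 0 were called (background 0%), 1 had an unadjusted p under 0.05 (Socs3, against 1.36% of all genes) and none separated the groups (0.062% of genes did). The medians were -0.02 for AP-1 and Egr genes, -0.11 for cytokine and NF-kB feedback genes and 0.00 for all genes. Without WT replicate 3 they were 0.31 and 0.47, without CCAT2-T replicate 3 -0.12 and -0.38, and without the 5 narrow arrays -0.27 and -0.43. The last of these fits keeps only replicates 3 and 4 of WT and of CCAT2-T. Socs3 averaged 6.44 ± 0.74 in DRAI- and 5.49 ± 0.99 in WT mice (SD, n = 8 and 4), a difference of 0.95 (SE 0.42, unadjusted p = 0.0360, adjusted p = 0.999). Without WT replicate 3 the Socs3 difference was 1.44. Csrnp1 differed by 0.17 (SE 0.21), and by -0.01 without WT replicate 4. Tnfaip3 averaged 7.10 ± 0.21 in DRAI- and 7.50 ± 0.63 in WT mice, a difference of -0.40 (SE 0.24, adjusted p = 0.999), and Atf3 differed by -0.79 (SE 0.58, adjusted p = 0.999). For both genes WT replicate 3 was the highest of all 18 mice, and without it the differences were -0.10 for Tnfaip3 and -0.05 for Atf3.

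CCAT2-G and CCAT2-T mice were compared in a fit with the 4 genotypes. No member and no other gene was called (0 of 40, background 0%), and 1 member, Socs3, had an unadjusted p under 0.05, against 6.29% of all genes. Most members were lower in CCAT2-G: 36 of 40, with 10 of 11 AP-1 and Egr genes, 8 of 8 cytokine and NF-kB feedback genes and 18 of 21 others, while 49.4% of all genes were higher. The medians were -0.64 for AP-1 and Egr genes, -0.53 for cytokine and NF-kB feedback genes and 0.00 for all genes. Without CCAT2-T replicate 3 these were -0.26 and -0.30, and without the 5 narrow arrays -1.06 and -0.93. Without the narrow arrays only replicates 3 and 4 of CCAT2-T remain. The members moved together in the same mice, so their directions are not independent of each other, and CCAT2-T replicates 3 and 4 were the high animals of that genotype.

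Egr1 averaged 5.37 ± 0.75 in CCAT2-G and 7.70 ± 2.37 in CCAT2-T mice (SD, n = 4 each), a difference of -2.33 (SE 1.49, unadjusted p = 0.135, adjusted p = 0.794). Ptgs2 averaged 2.49 ± 0.08 in CCAT2-G and 4.94 ± 2.89 in CCAT2-T mice, a difference of -2.46 (SE 1.57, unadjusted p = 0.136, adjusted p = 0.795). All 4 CCAT2-G and 2 of the 4 CCAT2-T mice were under the filter level for Ptgs2, so that difference is not an exact size. In both genes the low CCAT2-T mice reached down to the CCAT2-G levels. Without CCAT2-T replicate 3 the differences were -1.30 for Egr1 and -1.25 for Ptgs2, and without the 5 narrow arrays -4.34 and -4.80. The latter fit keeps only CCAT2-T replicates 3 and 4, the high mice of that genotype. Socs3 averaged 7.01 ± 0.14 in CCAT2-G and 5.87 ± 0.62 in CCAT2-T mice, a difference of 1.14 (SE 0.42, unadjusted p = 0.0139, adjusted p = 0.743). Gadd45b, a stress-induced regulator of MAP kinase signalling, measured 7.09, 7.14, 6.96, 7.28, 7.09 and 6.60 in CCAT2-GT mice and 6.94, 6.81, 7.56 and 6.85 in CCAT2-G mice. Gadd45b levels were 6.92, 7.00, 6.95 and 6.97 in CCAT2-T mice and 6.90, 7.13, 7.02 and 6.92 in WT mice. Gadd45b differed by 0.08 (SE 0.16, adjusted p = 0.944), and CCAT2-G replicate 3 alone was high among these 8 mice; without it the difference was -0.10. Between these 2 genotypes 2 of 40 members did not overlap, Socs3, higher in CCAT2-G, and Ccl4, lower, against 2.29% of all genes. Ccl4 lay at 5.51, 5.48, 5.78 and 5.70 in CCAT2-G mice and 5.99, 5.92, 6.66 and 6.07 in CCAT2-T mice.

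**Figure D4:**
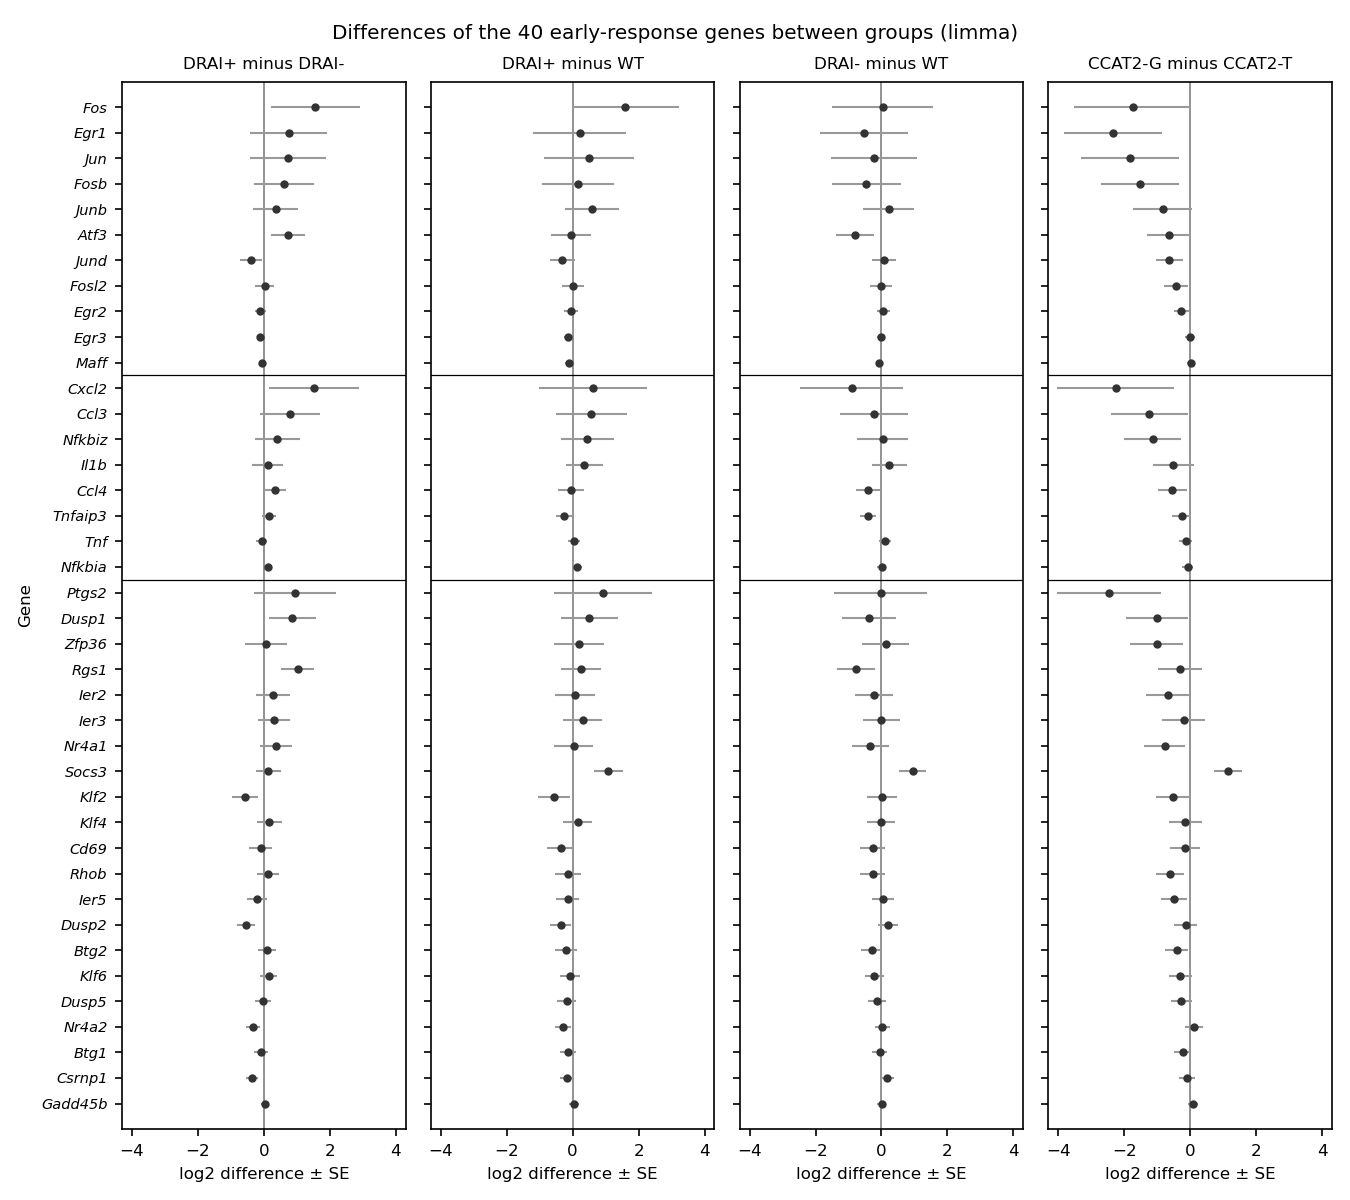
Log2 difference and SE (limma) of each of the 40 members in 4 comparisons, DRAI+ minus DRAI-, DRAI+ minus WT, DRAI- minus WT and CCAT2-G minus CCAT2-T, in the gene order of the plot by mouse. The widest bars belong to the genes that vary most between mice, and in the last panel most points lie left of 0.

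The errors behind these comparisons were large for the members. Their median SE was 0.36 for DRAI+ against DRAI-, 0.42 for DRAI+ against WT, 0.40 for DRAI- against WT and 0.45 for CCAT2-G against CCAT2-T, while the median SE of all genes was 0.12, 0.15, 0.14 and 0.16. A member that did not pass may therefore still differ, and a missed threshold does not show equal levels.

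Of the 102 genes tested in the related lists, 0 were called in each of the 4 comparisons, and 10, 4, 1 and 1 had an unadjusted p under 0.05 in the order of the plot of differences. These are 9.80%, 3.92%, 0.98% and 0.98% of the 102, against 9.57%, 2.63%, 1.36% and 6.29% of all genes. Csf1, the macrophage growth factor, averaged 6.37 in DRAI+ and 6.02 in DRAI- mice, a difference of 0.35 (SE 0.09, unadjusted p = 0.0012, adjusted p = 0.456). Klf9, a Krüppel-like factor, differed by 0.73 (SE 0.27) and Sgk1, a serum- and glucocorticoid-induced kinase, by 0.56 (SE 0.21) in the same comparison, both with an adjusted p of 0.486. Bcl3, a nuclear regulator of NF-kB, averaged 5.95 in DRAI+ and 6.68 in DRAI- mice, a difference of -0.73 (SE 0.25, adjusted p = 0.456). That DRAI- mean lay 0.84 above the WT mean of 5.83 (SE 0.28, adjusted p = 0.999). In the same DRAI+ and DRAI- mice all 9 monocyte and macrophage markers were higher in DRAI+ (median 0.44, 4 with an unadjusted p under 0.05), among them the Csf1 receptor gene Csf1r (0.53, SE 0.18, adjusted p = 0.460). All 10 megakaryocyte markers were higher too (median 0.68, 2 with an unadjusted p under 0.05). Of 9 B-cell markers 8 were lower (median -1.30), and all 9 had an unadjusted p under 0.05. The monocyte and macrophage mean ranged from 8.59 to 9.01 in CCAT2-GT mice, 7.95 to 9.07 in CCAT2-G mice and 7.74 to 8.71 in CCAT2-T mice. None of these markers passed at an adjusted p of 0.05, and their part in the differences of the members and of Csf1 was not tested. These further genes, like the members, did not pass in any of the 4 comparisons.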

How the data were processed

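Bone marrow RNA of 18 mice was measured on Affymetrix arrays. The authors deposited log2 expression values for 45101 probesets, normalized with RMA, as the submitters' processing notes state. Its version is not given in the sources used here, where no other step is named. The values run from 1.56 to 14.19, and 34958 probesets were annotated to 1 gene symbol, 932 to several and 9211 to none. The brightest of a gene's probesets stood for it, and genes with a mean below the 30th percentile of all probesets (3.30) were not tested. Groups came from the labels.

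The tests came from limma 3.58.1 under R 4.3.3. A linear model (lmFit) and moderated variances (eBayes, trend on) took in the 18 arrays together, as 3 groups for DRAI status and 4 for the genotypes. P-values were adjusted with Benjamini-Hochberg over 14505 genes, with a threshold of 0.05. The procedure was tested on simulated data. Correlations used 100000 permutations, or all permutations among 6 mice. A test over all 18 mice had been planned and was not run because the mice fell into separate clusters. The 40 members and the lists of related and marker genes were chosen with earlier results of these data known.

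Values by mouse were given for the 3 members of largest SD in each set and the 2 of smallest p in each direction of each comparison, with Nfkbia, and Ccl4 in the CCAT2-G and CCAT2-T mice, added after their values were seen. From the related lists only the 2 of smallest p in a comparison could be named, and the 5 non-members most like Fos and most like Il1b were named. Where nothing says that mice came from separate litters, p-values measure the spread between these animals. Alternatives were median centring, quantile normalization, a stricter filter (50th percentile) or none, probesets averaged per gene, eBayes with its trend off or robust, array weights, only the compared groups, 4 groups in the model, the replicate number as a block, the interquartile range as a covariate, leaving out the 5 narrow arrays, and leaving out each mouse.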

Additional observations from a re-analysis of the deposited data

Results flagged for a closer look

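Within each genotype, a mouse was marked when its gap to the nearest other mouse took up more of the group's range than Dixon's critical value allows. Chance marks about 1 in 20 groups, and 160 groups were examined (40 members in 4 genotypes), of which 31 were marked. The members move together, so these marks are not independent.

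WT replicate 3 stood above the other 3 WT mice in 18 members. Its AP-1 and Egr levels were 13.05 for Fos, 7.76 for Fosb, 10.56 for Jun, 9.86 for Junb, 8.41 for Atf3 and 11.54 for Egr1. Its cytokine and NF-kB feedback levels were 10.64 for Cxcl2, 9.00 for Ccl3, 7.61 for Ccl4, 9.32 for Il1b and 9.32 for Nfkbiz. The others were 9.04 for Nr4a1, 10.89 for Ier2, 10.18 for Btg2, 11.92 for Dusp1, 6.96 for Socs3, 10.15 for Rhob and 7.83 for Ptgs2. The nearest WT mouse was at 6.35 for Fos and 3.55 for Cxcl2.

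CCAT2-T replicate 3 stood above the other 3 CCAT2-T mice in 6 members. It was at 7.82 for Fosb, 10.96 for Jund, 7.08 for Atf3, 4.83 for Maff, 7.58 for Csrnp1 and 6.97 for Cd69. For Maff the nearest CCAT2-T mouse was at 4.72, a small step. CCAT2-T replicate 1 was low for Tnfaip3 at 7.03.

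CCAT2-G replicate 3 was marked in both directions. It was high for Nfkbiz at 7.26 and for Gadd45b at 7.56, and low for Egr1 at 4.26 and for Nr4a2 at 5.22. CCAT2-G replicate 2 was low for Nr4a1 at 6.26. WT replicate 4 was low for Dusp2 at 6.10, where the other 3 WT mice were at 7.58 to 7.62.

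Among the 6 CCAT2-GT mice no member was marked, although replicates 1 and 5 were the high animals there.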

How the results depend on the processing

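The counts of called members stayed at 0 in all 4 comparisons under the alternatives run, except that array weights called 1 member, Socs3, in DRAI+ against WT (1.40, adjusted p = 0.0357). Array weights also called 456 of all genes there, 137 higher and 319 lower, where 0 were called without them. In DRAI+ against DRAI- leaving out 1 mouse gave 0 to 7 called genes, the 7 without CCAT2-G replicate 3. In CCAT2-G against CCAT2-T quantile normalization and the filter at the 50th percentile each called 1 gene, and leaving out 1 mouse gave 0 to 1, the 1 without CCAT2-GT replicate 3 or without CCAT2-T replicate 1. The cause was not tested. Over all alternatives the AP-1 and Egr median ran from -0.10 to 1.10 in DRAI+ against DRAI-, from -0.25 to 0.92 in DRAI+ against WT, from -0.28 to 0.31 in DRAI- against WT and from -1.06 to -0.26 in CCAT2-G against CCAT2-T. The cytokine and NF-kB feedback median ran from 0.06 to 0.68, -0.36 to 0.82, -0.43 to 0.47 and -0.93 to -0.30 in the same order. Only the last comparison kept its sign for both sets. With the replicate number as a block 0 genes and 0 members were called in the 4 comparisons. The numbers were not taken to pair the mice, because in none of the 4 comparisons did every same-numbered pair correlate over 0.1. Deviations of same-numbered mice correlated at -0.36 to 0.67, 11 of 24 over 0.1. All 4 pairs of CCAT2-T and WT mice (0.19 to 0.57) and 3 of 4 pairs of CCAT2-G and CCAT2-T mice (0.02 to 0.44) were over 0.1, and 6 of 18 mice correlated best with their own number. Between 4 and 8 mice a group and the members' large spread limit what these tests can show.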

Other observations

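The 12 heat shock genes tested, chaperones induced by protein damage, were on average highest in CCAT2-T replicates 3 and 4 (9.10 and 8.75), CCAT2-G replicate 4 (8.73) and CCAT2-GT replicate 1 (8.65). WT replicate 3 was at 8.42 and CCAT2-GT replicate 5 at 8.26, so only part of the high mice of the early-response genes was high here. Hspa1a, an inducible Hsp70 gene, was at 8.64 in CCAT2-T replicate 3, 6.05 in CCAT2-GT replicate 1, 5.14 in CCAT2-T replicate 4 and 4.85 in WT replicate 3, and between 2.72 and 4.00 in the other mice.

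Probesets of 1 gene did not always rank the mice alike. The third probeset of Btg1 spanned 5.12 to 10.31 over the 18 mice, with the same 4 mice highest, while the brightest spanned 10.37 to 11.82. For Nr4a2 the brightest of 6 probesets had none of those 4 mice among its highest, and the dimmest, at 2.30 to 4.27 and below the filter, had all 4. Its 2nd probeset by mean, above the filter, had r = 0.49 with Fos over the 18 mice, where the brightest had -0.44.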
